A study of Homo sapiens with 5 samples.

Results

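The genes described here are 31 genes of cholesterol synthesis, uptake and efflux among the 19936 genes measured in LX-2, a human hepatic stellate cell line that grows without limit in culture. Stellate cells store vitamin A in healthy liver and make scar matrix once activated. The genes were taken from a fixed list of names, chosen with earlier results of these data known. They were matched by Ensembl ID, and all 31 were found. Of these, 21 are known targets of the transcription factor SREBP2 and 3 are known targets of the liver X receptors (LXR). The remaining 7 encode the LXR receptors, the SREBP2 chaperone SCAP, its anchor INSIG2, and proteins that move or store sterol.

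Cells make cholesterol from acetyl-CoA through the mevalonate pathway, squalene and lanosterol. When sterol in the endoplasmic reticulum is scarce, SCAP carries SREBP2 to the Golgi, where it is cleaved, and its released part enters the nucleus and switches on genes of synthesis and uptake. INSIG1 and INSIG2 hold SCAP back when sterol is plentiful, while oxysterols activate LXR, which switches on the efflux pumps ABCA1 and ABCG1 and the ubiquitin ligase MYLIP, which lowers uptake. In stellate cells, free cholesterol is known to sensitise the cell to fibrogenic signals.

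RNA was collected 48 h after transfection with control siRNA (siControl, 2 libraries) or with siRNA against LIX1L (siLIX1L, 3 libraries), in the same cell line and with no other treatment in the labels. LIX1L encodes a protein with a predicted double-stranded RNA-binding domain, and the series title links it to the chemokine CCL20 and to fibrosis. Nothing in the labels tells if replicates were separate cultures, so each p-value is relative to a spread that could be purely technical. Levels are reads per 1000000 counted reads (RPM), and tests were made with limma on log2(FPKM + 1) and with edgeR on the reads. An adjusted p under 0.05 counts as passing.

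The libraries held 14856104 to 18294056 counted reads. LIX1L had 393 and 649 reads in the controls and 98, 107 and 65 after LIX1L siRNA, 5.36-fold lower in mean RPM. Its difference of log2(FPKM + 1) was -0.87 (SE 0.11, limma adjusted p = 0.0384, and 0.0148 to 0.230 in the other limma settings). On reads, the log2 fold change was -2.45 with edgeR (adjusted p = 0.0388) and -2.43 with DESeq2 (adjusted p = 9.5e-09). CCL20 had 74 and 56 reads against 4, 5 and 1. Libraries siLIX1L 1 and 2 were much closer to each other (chi-square per gene 5.59) than any other pair (55.4 or more), so they may count for less than 2 independent samples. The 2 controls differed more from each other (121) than siControl 1 did from the siLIX1L libraries (94.1 to 105). SiControl 2 differed from the siLIX1L libraries by 141 to 165. Mitochondrial genes took 2.24 and 3.35% of reads in the controls and 1.08 to 1.29% in the siLIX1L libraries. Of 14 stellate and stromal markers, 13 were at or above 1 RPM in every library, and DES, which encodes desmin, was under 1 RPM in every library. Their summed level was 4567 and 12078 RPM in the controls and 7567 to 8033 RPM after LIX1L siRNA. Of the hepatocyte markers 4 of 6 (ALB, APOA1, TTR and CYP3A4), of the macrophage and blood cell markers 5 of 6, of the endothelial markers 4 of 5 and of the cholangiocyte markers 2 of 4 were under 1 RPM in every library. The summed levels ran from 2.32 to 7.43 RPM for hepatocyte, from 0.449 to 2.55 RPM for macrophage and blood cell and from 1.08 to 3.38 RPM for endothelial markers. The cholangiocyte markers summed to 31.4 and 46.4 RPM with control siRNA and to 53.9 to 105 RPM with LIX1L siRNA.

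Values of most cholesterol synthesis genes were higher after LIX1L siRNA and those of the LXR efflux genes were not, but no member passed the limma or the edgeR test. Among the 21 SREBP2 targets, 17 had a positive edgeR log2 fold change and their median was 0.62, against 47.3% positive and a median of -0.04 over all 13026 genes tested. The 3 LXR targets had a median of -0.18, with 1 positive value. In 11 of the 21 SREBP2 targets every siLIX1L library was above both controls, in none was every one below, and in 10 the groups overlapped. Over all genes tested by edgeR, 22.2% lay wholly above, 21.8% wholly below and 55.9% overlapped. In bulk RNA, fewer cells of a kind and less RNA per cell cannot be told apart.

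The limma test covered the 24 members that reached 1 FPKM in 2 or more libraries, and 0 of these passed, against 1.87% of all 6464 genes tested (121 genes). At an unadjusted p under 0.05 there were 7 of 24 members, against 27.6% of all genes. CYP51A1, NSDHL, HSD17B7, ABCA1, ABCG1, MYLIP and NR1H3 were below that minimum and were tested on reads alone (edgeR and DESeq2). With edgeR, 0 of 31 passed, against 0.891% of all genes, and 8 were at an unadjusted p under 0.05, against 25.8%. DESeq2, which called 12.5% of the genes to which it gave an adjusted p and 6.32% as higher, called 5 of 31 members higher, namely STARD4, HMGCS1, MSMO1, IDI1 and CYP51A1, and none lower.

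**Figure D1:**
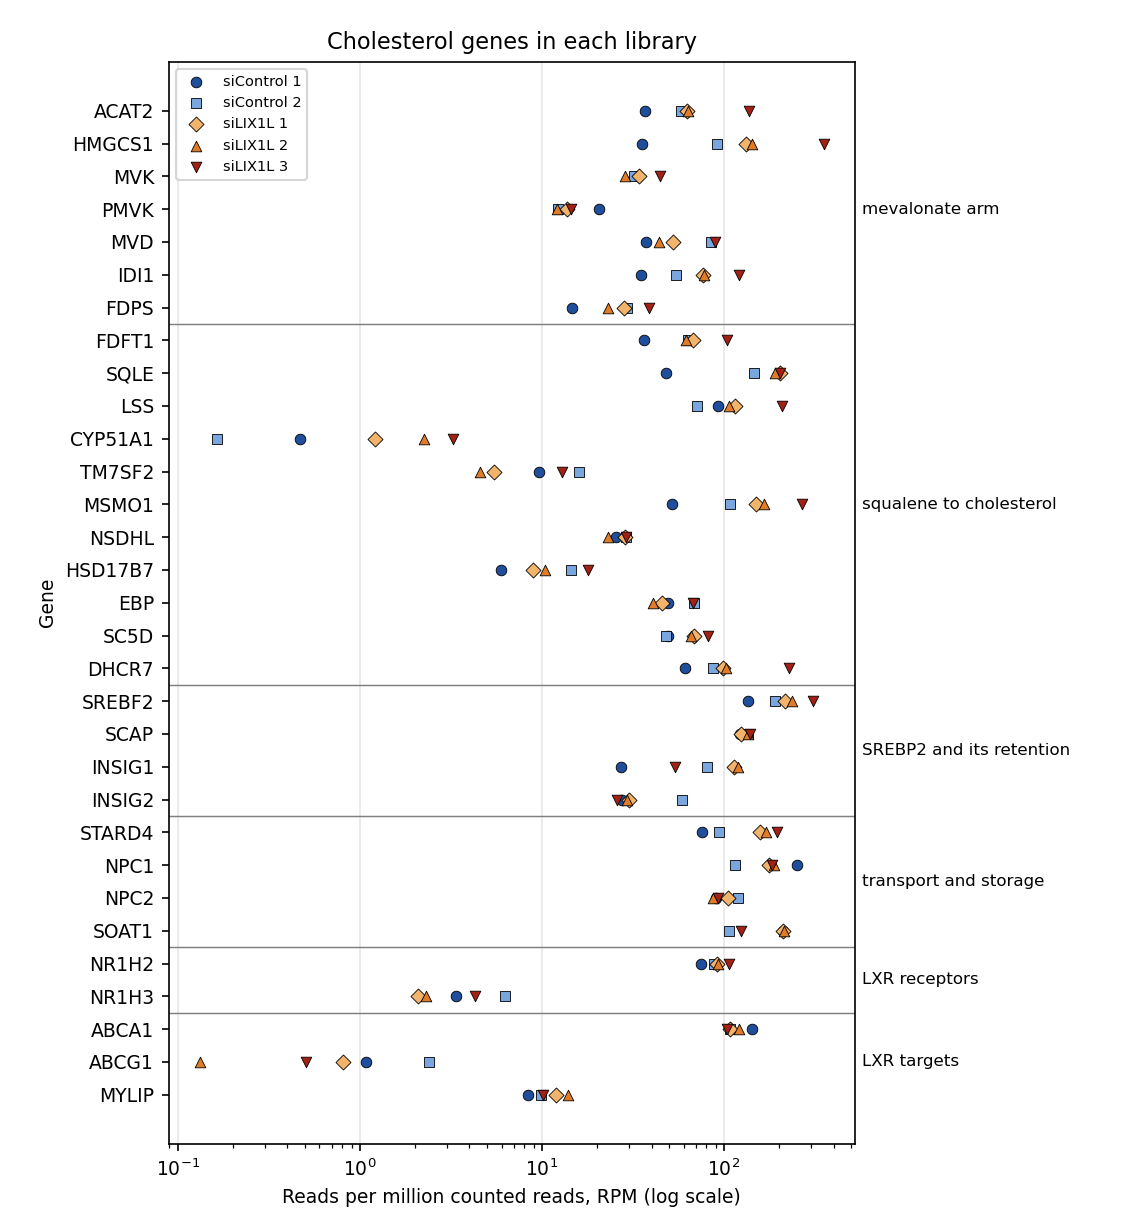
Level of each of the 31 genes in each of the 5 libraries, in RPM on a log axis, grouped by role, with 1 symbol per library. HMGCS1 ran from 35.6 RPM in siControl 1 to 353 RPM in siLIX1L 3, SCAP stayed between 123 and 139 RPM, and CYP51A1 and ABCG1 lay below 4 RPM in every library.

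STARD4, which carries cholesterol between membranes in the cytosol, came closest to the threshold. It had 75.9 and 93.9 RPM in the controls and 158, 170 and 196 RPM in the siLIX1L libraries. All 3 siLIX1L libraries were above both controls, and the gap between the groups was wider than the spread within either. The mean was 2.06-fold higher, 84.9 ± 12.7 (SD, n = 2) against 175 ± 19.6 RPM (SD, n = 3), with a log2(FPKM + 1) difference of 0.92 (SE 0.17, limma adjusted p = 0.0503). The edgeR log2 fold change was 1.03 (adjusted p = 0.0622; DESeq2 adjusted p = 0.00117). STARD4 passed limma with a minimum of 5 FPKM (adjusted p = 0.0438), where 138 of 2438 genes did. It also passed with quantile normalization (limma adjusted p = 0.0438), where 233 of 6464 did. Limma's adjusted p ran up to 0.250 in the other settings. The difference was 0.79 without siControl 1 and 1.04 without siControl 2. The gene lies on the minus strand at chr5:111496033-111512590 (GRCh38), and 2.18% of its exon bases are shared with the antisense gene STARD4-AS1. The sources used here do not say if strand was kept.

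Shown are the stretches before the start sites of 4 SREBP2 targets, picked among those higher in every siLIX1L library. The LXR site of ABCA1, whose groups overlapped, is given beside them. They come from RefSeq windows on GRCh38.p14 (250 bases before to 50 after each start), which were found for 27 of the 31 members. Capitals mark the sterol regulatory element core TCACNCCA, bound by SREBP2, and the CCAAT box (ATTGG on the other strand), bound by NF-Y, a partner of SREBP2. In ABCA1 they mark the half-sites of a DR4, the direct repeat at which LXR binds with its partner RXR. Each sequence reads 5′ to 3′ on the strand of its gene and lies before the start in both RefSeq and GENCODE 29, except that of ABCA1, which lies before the RefSeq start. STARD4 is at chr5:111512591-111512735, minus strand, HMGCS1 at chr5:43313513-43313612, minus strand, MSMO1 at chr4:165327469-165327622, plus strand, SREBF2 at chr22:41832905-41833078, plus strand, and the ABCA1 site at chr9:104928202-104928231, minus strand.
STARD4: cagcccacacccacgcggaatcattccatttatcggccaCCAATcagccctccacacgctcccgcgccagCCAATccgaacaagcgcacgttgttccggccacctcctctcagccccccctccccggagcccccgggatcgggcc
HMGCS1: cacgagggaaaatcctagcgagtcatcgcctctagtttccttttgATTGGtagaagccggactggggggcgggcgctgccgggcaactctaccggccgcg
MSMO1: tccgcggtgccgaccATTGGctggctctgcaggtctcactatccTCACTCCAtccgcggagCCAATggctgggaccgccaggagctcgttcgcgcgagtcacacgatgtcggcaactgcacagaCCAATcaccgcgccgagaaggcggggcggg
SREBF2: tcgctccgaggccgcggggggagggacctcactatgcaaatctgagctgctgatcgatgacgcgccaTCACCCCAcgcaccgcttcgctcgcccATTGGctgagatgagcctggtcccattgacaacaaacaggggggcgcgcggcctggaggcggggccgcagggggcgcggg
ABCA1: caggcttTGACCGatagTAACCTctgcgct
The core TCACNCCA was found, on either strand, in 3 of the 18 SREBP2 target windows (16.7%), those of MSMO1, MVK and SREBF2, against 3.93% of all 27305 promoter windows. In MSMO1 it starts 156 bases before the RefSeq start and in SREBF2 133 bases before it. The letters CCAAT or their complement were in 15 of the 18 windows (83.3%), against 35.7% of all windows and 39.4% of those of genes tested by limma. The 3 windows without CCAAT, which also lacked the core, were those of IDI1, CYP51A1 and PMVK. Of these, IDI1 and CYP51A1 were among the higher members, and the groups of PMVK overlapped. STARD4 has CCAAT at 161 and 130 bases before its start. The GC box GGGCGG was in 17 of 18 (94.4%), against 44.6% of all windows and 73.2% of those of tested genes. The DR4, searched by name on both strands with up to 2 mismatches in its half-sites, was in 1 member window, that of ABCA1, 69 bases before the start, and in 2.42% of all windows. The last letters of the core, CCA, are also the first of CCAAT, but the sites did not overlap in the 3 windows with the core. The core was present both in MSMO1, among the higher members, and in MVK, whose groups overlapped.

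In the mevalonate arm, HMGCS1, ACAT2 and IDI1 were higher in all 3 siLIX1L libraries than in both controls, and MVK, PMVK, MVD and FDPS overlapped between the groups. HMGCS1, the synthase that makes HMG-CoA, had 35.6 and 91.9 RPM in the controls and 132, 143 and 353 RPM after LIX1L siRNA. The groups did not overlap, but siControl 1 was far below siControl 2 and siLIX1L 3 far above siLIX1L 1 and 2. The mean was 3.28-fold higher (log2 difference 1.36, SE 0.45, limma adjusted p = 0.123, and 0.0988 to 0.289 in the other settings; DESeq2 adjusted p = 0.0132). The ratio was 2.28-fold without siControl 1, 5.88-fold without siControl 2 and 2.16-fold without siLIX1L 3. Of its exon bases, 14.9% are shared with the gene AC114947.2.

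IDI1, which turns isopentenyl into dimethylallyl pyrophosphate, had 35.0 and 54.3 RPM in the controls and 77.1, 77.6 and 120 RPM in the siLIX1L libraries, which all lay above the controls. It was 2.05-fold higher (log2 difference 0.89, SE 0.25, limma adjusted p = 0.0938, and 0.0779 to 0.282 in the other settings; DESeq2 adjusted p = 0.0246). ACAT2, the cytosolic thiolase that joins acetyl-CoA units, had 36.8 and 58.0 RPM against 62.7, 63.7 and 137 RPM, with siLIX1L 3 well above the rest (log2 difference 0.64, SE 0.32, limma adjusted p = 0.249; 0.33 without siLIX1L 3). Exons of other genes, among them TCP1 and SOD2, cover 52.3% of the exon bases of ACAT2, so its reads may include theirs and its value is uncertain.

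The kinases and the decarboxylase that act on mevalonate did not separate by group. MVK, mevalonate kinase, had 33.7 and 32.1 RPM in the controls and 34.3, 28.6 and 44.6 RPM after LIX1L siRNA (log2 difference 0.06). PMVK, phosphomevalonate kinase, had 20.6 and 12.2 against 13.7, 12.1 and 14.5 RPM (-0.14), its highest value being that of siControl 1. MVD, which makes isopentenyl pyrophosphate, had 37.2 and 84.4 against 52.5, 43.8 and 89.6 RPM (0.06), so that the spread within each group was larger than the difference between them. FDPS, farnesyl pyrophosphate synthase, had 14.6 and 29.2 against 28.3, 23.0 and 38.7 RPM (0.33, SE 0.24, limma adjusted p = 0.412). Its controls differed 2.001-fold between themselves, and without siControl 1 the difference was 0.012.

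From squalene to cholesterol, SQLE, LSS, MSMO1, SC5D, DHCR7 and CYP51A1 were higher in every siLIX1L library than in both controls, and FDFT1, TM7SF2, NSDHL, HSD17B7 and EBP overlapped. MSMO1, which removes methyl groups at carbon 4 of the sterol ring, had 51.6 and 108 RPM in the controls and 150, 166 and 269 RPM after LIX1L siRNA. Every siLIX1L library was above both controls, and the order within the groups was that of HMGCS1. The mean was 2.45-fold higher (log2 difference 1.17, SE 0.34, limma adjusted p = 0.0970, and 0.0609 to 0.287 in the other settings; DESeq2 adjusted p = 0.0180). SC5D, the lathosterol desaturase, had 49.3 and 47.9 RPM against 68.1, 66.2 and 81.7 RPM, the tightest pair of controls among the enzymes (1.03-fold apart), with a log2 difference of 0.44 (SE 0.14, limma adjusted p = 0.115).

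SQLE, squalene epoxidase, had 48.1 and 146 RPM in the controls and 202, 190 and 204 RPM in the siLIX1L libraries. The siLIX1L values were close together, and the controls differed 3.04-fold, the widest gap between controls of all 31 genes. The mean was 2.05-fold higher (log2 difference 1.01, SE 0.34, limma adjusted p = 0.128). The difference of SQLE was 1.63 without siControl 2 and 0.39 without siControl 1. FDFT1, squalene synthase, had 36.5 and 63.3 against 67.4, 61.9 and 104 RPM, overlapping only through siLIX1L 2 (log2 difference 0.38, SE 0.20). LSS, which closes the ring to lanosterol, had 93.1 and 70.6 against 115, 106 and 207 RPM, and was the only enzyme with non-overlapping groups, apart from SC5D and CYP51A1, whose siControl 1 exceeded siControl 2 (0.55, SE 0.25, limma adjusted p = 0.211; 0.31 without siLIX1L 3). DHCR7, which makes cholesterol in the last step of one branch, had 61.2 and 86.5 against 98.3, 102 and 227 RPM (0.69, SE 0.34, limma adjusted p = 0.237; 0.35 without siLIX1L 3).

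CYP51A1, lanosterol demethylase, had only 7 and 3 reads in the controls and 18, 34 and 58 reads in the siLIX1L libraries. All siLIX1L libraries were above both controls, and the pooled reads were 7.64-fold higher in RPM, with an exact 95% interval of 4.0 to 16.4 that covers counting error only. Its edgeR log2 fold change was 2.84 (adjusted p = 0.0739, and 0.0222 to 0.274 in the other edgeR settings; DESeq2 adjusted p = 0.00551). CYP51A1 passed edgeR without a minimum level (adjusted p = 0.0484) and with the replicate number as a block (2.42, adjusted p = 0.0222). Under that block siLIX1L 3 does not enter the estimated difference. Without siControl 1 the edgeR log2 fold change was 3.69. The ratio of mean RPM, 7.06-fold, was 13.7-fold without siControl 1 and 4.76-fold without siControl 2. The value is uncertain, because the read-through gene model AC000120.2 and other genes cover 83.2% of its exon bases. In the annotation that model spans 67353 bases (chr7:92112159-92179511), and the neighbouring gene LRRD1 has a deposited length of 67373 bases, and how reads of the locus were divided between these genes was not tested. Its control level of 0.0988 RPM per kilobase of transcript was the lowest of the 31 genes.

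The other sterol enzymes differed little or went the other way. TM7SF2, a sterol reductase, had 9.61 and 16.0 RPM in the controls and 5.45, 4.57 and 12.9 RPM after LIX1L siRNA (log2 difference -0.55, SE 0.31, limma adjusted p = 0.2995), with siLIX1L 3 inside the range of the controls. NSDHL, which acts with MSMO1, had 25.6 and 28.9 against 28.5, 23.2 and 29.03 RPM (edgeR log2 fold change -0.03). HSD17B7, the ketoreductase of the same complex, had 5.98 and 14.5 against 8.95, 10.4 and 17.9 RPM (edgeR 0.25). EBP, the sterol isomerase, had 49.1 and 68.8 against 45.6, 40.9 and 67.3 RPM (limma -0.19). In none of these 4 was the difference of the means larger than the wider of the ranges within the groups.

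**Figure D2:**
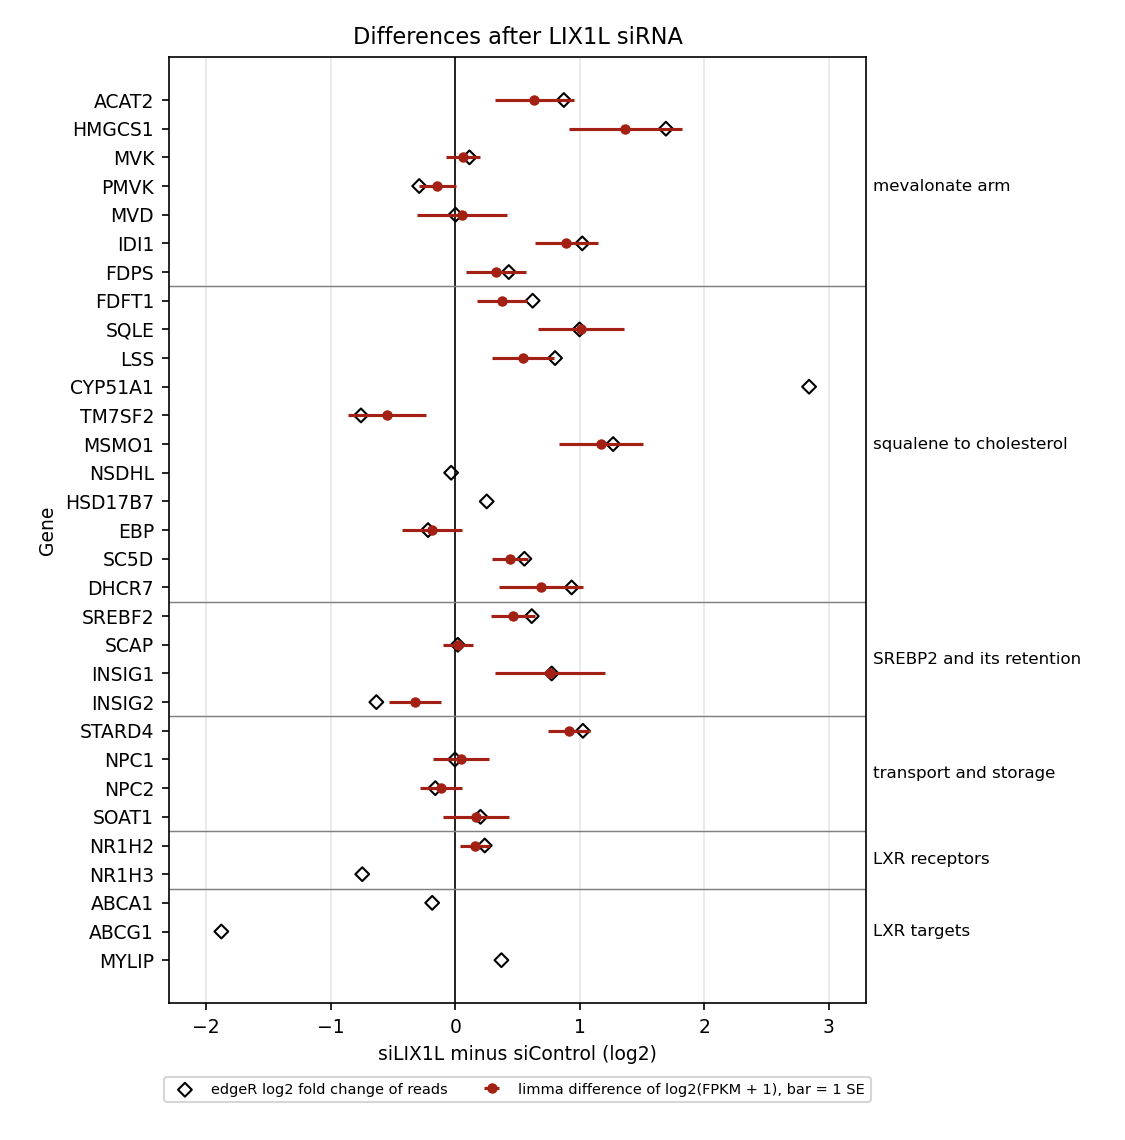
Difference between siLIX1L and siControl for each gene on a log2 scale: red points with bars of 1 SE are limma differences of log2(FPKM + 1) for the 24 genes above the minimum, and open diamonds are edgeR log2 fold changes of reads for all 31. Most enzymes lie to the right of 0, up to 1.36 for HMGCS1 in limma and 2.84 for CYP51A1 in edgeR, while ABCA1 and ABCG1 lie to the left.

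Of the regulators, SREBF2, which encodes SREBP2 and is its own target, was higher in all siLIX1L libraries, and SCAP hardly varied. SREBF2 (chr22:41833079-41907308, plus strand) had 136 and 191 RPM in the controls and 216, 238 and 308 RPM after LIX1L siRNA, a 1.55-fold higher mean (log2 difference 0.46, SE 0.18, limma adjusted p = 0.159). SCAP had 123 and 136 RPM against 124, 135 and 139 RPM (0.02, SE 0.12). INSIG1, an anchor of SCAP and itself an SREBP2 target, had 27.3 and 81.0 RPM against 113, 119 and 53.8 RPM (0.76, SE 0.44, limma adjusted p = 0.308). The difference of INSIG1 was 0.14 without siControl 1 and 1.37 without siControl 2. It was the only SREBP2 target in which siLIX1L 3 was below siLIX1L 1 and 2, and its value there lay between the controls.

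INSIG2, the second anchor, which is not counted here as an SREBP2 target, had 27.5 and 58.8 RPM in the controls and 30.1, 29.5 and 25.8 RPM after LIX1L siRNA. The siLIX1L libraries were near siControl 1 and well below siControl 2, and the log2 difference was -0.32 (SE 0.21, limma adjusted p = 0.352). The difference of INSIG2 was -0.68 without siControl 1 and turned sign without siControl 2 (0.03).

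The lysosomal exporters and the storage enzyme showed no separation by group. NPC1, the membrane protein that passes cholesterol out of lysosomes, had 252 and 115 RPM in the controls and 176, 189 and 183 RPM in the siLIX1L libraries, which all lay between the controls (log2 difference 0.05, SE 0.22). The difference of NPC1 was 0.43 without siControl 1 and -0.34 without siControl 2. NPC2, its soluble partner, had 90.6 and 119 against 105, 86.7 and 93.0 RPM (-0.11). SOAT1, which esterifies cholesterol for storage in droplets, had 210 and 107 against 210, 214 and 124 RPM (0.17), so that siControl 1 matched siLIX1L 1 and 2 while siControl 2 was near siLIX1L 3.

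On the efflux side, ABCA1, the pump that loads cholesterol onto lipid-poor apolipoproteins, had 143 and 108 RPM in the controls and 108, 121 and 103 RPM after LIX1L siRNA. The groups overlapped and the edgeR log2 fold change was -0.18 (adjusted p = 0.562). ABCG1, which exports cholesterol to mature lipoprotein particles, had 16 and 44 reads in the controls and 12, 2 and 9 reads in the siLIX1L libraries, all below both controls in RPM. Its pooled reads were 3.76-fold lower in RPM (exact 95% interval 2.29 to 6.37, counting error only), with an edgeR log2 fold change of -1.88 (adjusted p = 0.146). MYLIP had 8.33 and 9.89 RPM against 11.9, 13.8 and 10.1 RPM, narrowly above both controls in each library (edgeR 0.37, adjusted p = 0.404). The 3 LXR targets thus gave 1 gene wholly lower, 1 wholly higher and 1 overlapping. Without siControl 1 their median edgeR log2 fold change was 0.01, in place of -0.18.

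Of the receptors, NR1H2, which encodes LXRβ, had 74.8 and 88.3 RPM in the controls and 91.8, 92.9 and 107 RPM after LIX1L siRNA, all above the controls by a small margin (log2 difference 0.16, SE 0.12, limma adjusted p = 0.431). NR1H3, which encodes LXRα, had 3.36 and 6.23 against 2.09, 2.32 and 4.27 RPM, with overlapping groups (edgeR -0.75, adjusted p = 0.344). Per kilobase of transcript, the mean control level of NR1H2 was 34.3 RPM and that of NR1H3 1.76 RPM.

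The SREBP2 targets varied together among libraries of the same group as well as between groups. SiLIX1L 3 was above siLIX1L 1 and 2 in 20 of the 21, against 37.4% of all genes tested by edgeR, with a median ratio of 1.56 to the mean of siLIX1L 1 and 2 (0.97 over all genes). Only the deposited file of siLIX1L 3 held a raw count. The labels do not tell if this library was prepared with the others or with the same siRNA. SiControl 2 was above siControl 1 in 16 of the 21, against 45% of all genes, with a median ratio of 1.55 (0.95 over all genes). A library order with siControl 1 lowest and siLIX1L 3 highest held for 12 of the 21 and for 4.36% of all genes. On the scale of log2(RPM + 0.5), the median departure of these genes from their own 5-library means was -0.76 and -0.14 for the controls and 0.07, -0.03 and 0.59 for the 3 siLIX1L libraries in order of number. The LXR targets had 0.27 and -0.10 against 0.00, 0.07 and -0.17. SiControl 1, which had the lowest median departure for the SREBP2 targets, also held the least summed stellate marker RNA. SiControl 2 held the most (12078 RPM) with a departure of -0.14. The 3 siLIX1L libraries held 7567, 7617 and 8033 RPM with departures of 0.07, -0.03 and 0.59. The part of that marker level in the result was not tested.

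The size of the difference depended on which libraries were compared. The median edgeR log2 fold change of the 21 SREBP2 targets was 0.62 with all libraries, 0.38 without siControl 1, 1.09 without siControl 2 and 0.40 without siLIX1L 3.

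**Figure D3:**
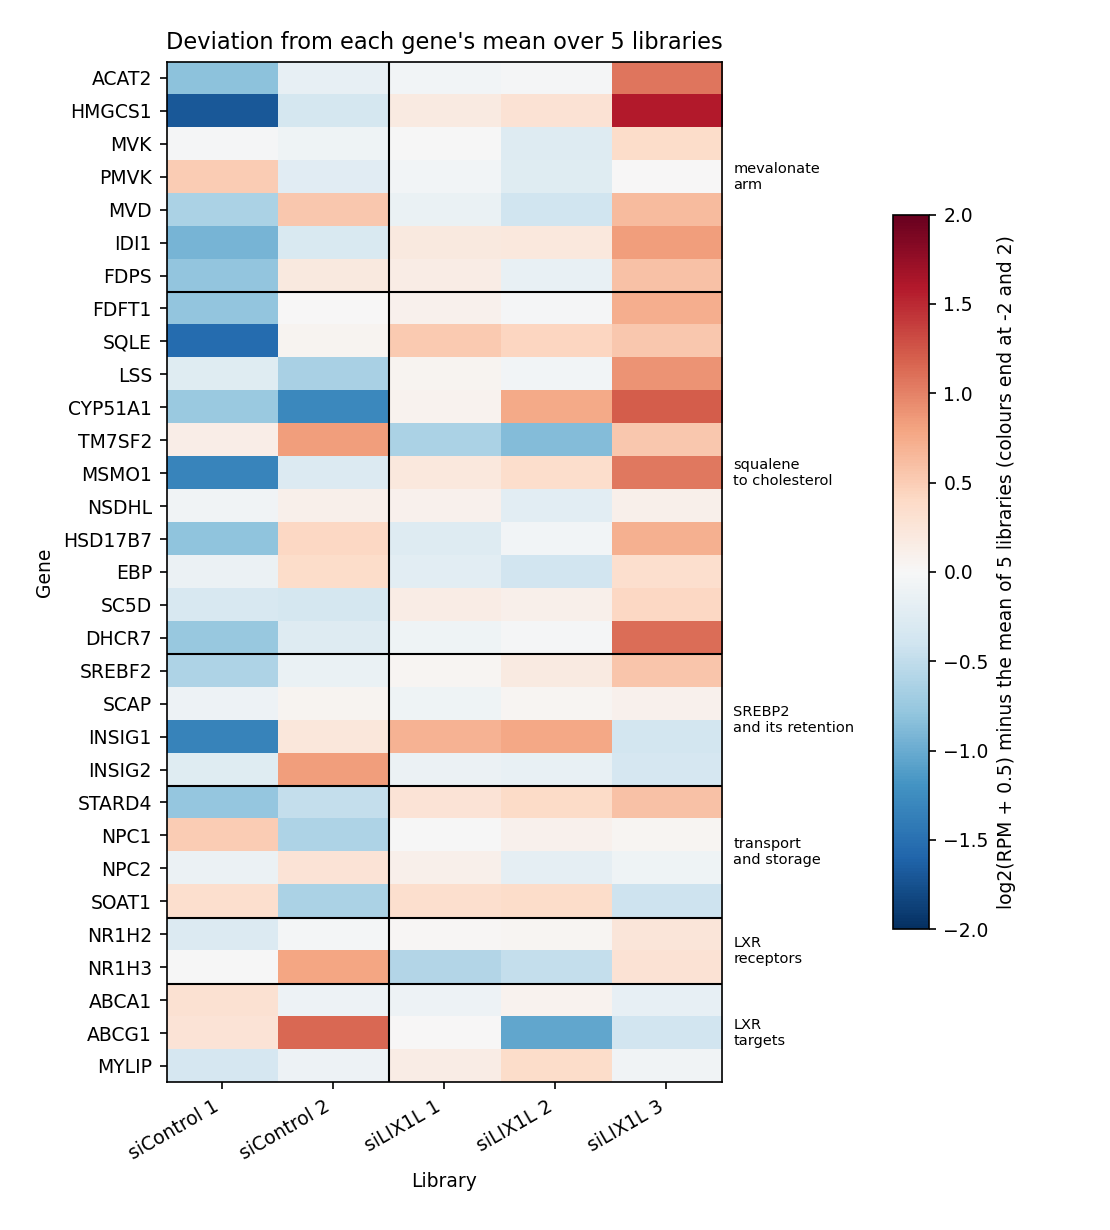
Distance of log2(RPM + 0.5) in each library (columns) from the mean of that gene over 5 libraries, for the 31 genes (rows) grouped by role, from blue (below) to red (above). Most rows of the 2 synthesis groups are blue in siControl 1 and red in siLIX1L 3; PMVK (0.51) and TM7SF2 (0.13) lie above their means in siControl 1.

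Among the 18 SREBP2 targets tested by limma, the difference was larger where the transcript was poorer in G and C. Pearson's r between the difference and the GC content of the longest transcript was -0.75 (Spearman's rho -0.73, n = 18 genes), against -0.28 over all 6464 genes. These points share the same 5 libraries and are not independent replicates. The relation was weaker over all 24 members tested by limma (r = -0.47) and over all 31 with edgeR (r = -0.38). With log2 transcript length, r was 0.46 over the 18 targets and 0.41 over all 6464 genes. The 5 targets below 45% GC (STARD4, SC5D, MSMO1, HMGCS1 and IDI1) all had positive differences with a median of 0.92, and the 8 above 55% GC had 6 positive with a median of 0.20. Of all 8 members below 45% GC in limma, 6 had positive differences, and INSIG2 and NPC2 had negative ones. Above 55% GC, 8 of 10 members had positive differences. The medians were 0.67 below 45% and 0.11 above 55%. Over all genes, 62.2% were positive below 45% GC (median 0.10) and 35.2% above 55% (median -0.15). With the trend on transcript length and GC content removed from each library, the median of the 18 was 0.50, as it was without the removal, and 17 were positive in place of 15. After the removal HMGCS1 had a difference of 1.26 and STARD4 0.73 (limma adjusted p = 0.210 and 0.115).

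**Figure D4:**
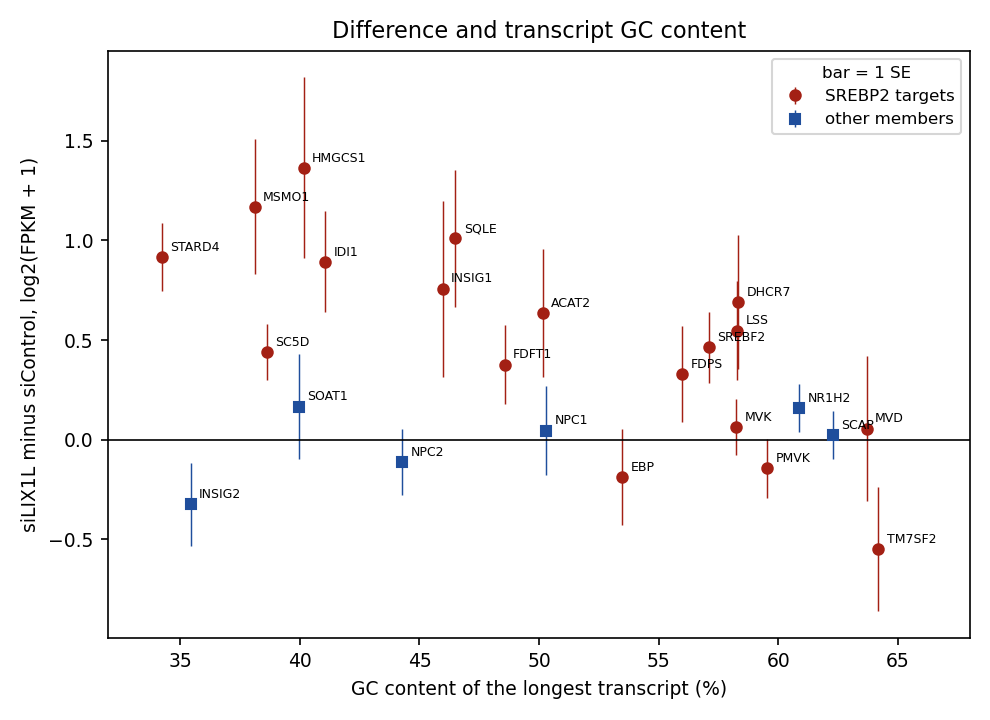
Limma difference of log2(FPKM + 1), siLIX1L minus siControl, with bars of 1 SE, against the GC content of each gene's longest transcript, for the 18 SREBP2 targets (red circles) and 6 other members (blue squares) above the minimum. The targets below 45% GC lie between 0.44 and 1.36, and TM7SF2, the richest in GC at 64.2%, lies at -0.55.

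Per kilobase of transcript, control levels of the 18 synthesis enzymes ran from 0.0988 RPM for CYP51A1 and 3.32 for HSD17B7 to 33.2 for EBP and 35.1 for MSMO1. NPC2 had the highest control level of all members at 72.9 RPM per kilobase, and ABCA1 had 11.96 against 0.501 for ABCG1.

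Other genes of the pathway, given by a fixed rule, were mostly not called. Over all genes tested, 1.87% passed limma and 0.891% edgeR, and DESeq2 called 12.5%. In limma 27.6% of all genes were at an unadjusted p under 0.05. Of 14 further genes of SREBP processing and sterol-regulated turnover, all tested by limma, 0 passed (4 at an unadjusted p under 0.05; 0 with edgeR; 2 higher with DESeq2). PAQR3, which tethers SCAP and SREBP at the Golgi, had 89.5 and 68.9 RPM in the controls and 128, 136 and 135 RPM after LIX1L siRNA (log2 difference 0.50, limma adjusted p = 0.0783), though 45.5% of its exon bases are shared with BMP2K. SPRING1, needed for SREBP cleavage, had 51.9 and 29.2 against 79.6, 78.0 and 76.1 RPM (0.65, limma adjusted p = 0.0789). Of 12 SREBP1 targets in fatty acid synthesis, 5 were tested by limma and 0 passed (1 at an unadjusted p under 0.05; 0 of 12 with edgeR; 1 higher with DESeq2). FASN, fatty acid synthase, had 127 and 167 against 195, 206 and 317 RPM (0.61, limma adjusted p = 0.168), again with siLIX1L 3 highest, and ACLY, which supplies acetyl-CoA, had 230 and 241 against 284, 298 and 304 RPM (0.26, limma adjusted p = 0.238).

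Of 18 other isoprenoid and sterol enzymes, 8 were tested by limma and 0 passed (0 at an unadjusted p under 0.05; 0 with edgeR; 1 lower with DESeq2). LBR, a sterol reductase of the nuclear envelope, had 94.5 and 140 RPM against 168, 170 and 147 RPM (limma adjusted p = 0.209), and ERG28, a scaffold of sterol enzymes, had 32.3 and 41.1 against 46.4, 48.4 and 49.3 RPM (limma adjusted p = 0.211). Of 20 other genes of sterol transport, 11 were tested and 0 passed (2 at an unadjusted p under 0.05; 0 with edgeR; 1 higher and 2 lower with DESeq2). CAV1, the coat protein of caveolae, had 450 and 422 RPM against 700, 680 and 666 RPM (0.61, limma adjusted p = 0.0731). GRAMD1A, which moves cholesterol from the plasma membrane to the endoplasmic reticulum, had 72.5 and 73.8 against 45.9, 41.6 and 47.2 RPM (-0.45, limma adjusted p = 0.0746). In both genes the groups did not overlap. Over all genes tested by edgeR, 22.2% lay wholly above and 21.8% wholly below.

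Among 13 other LXR partners and targets, 4 were tested by limma and 1 passed, PLTP, a phospholipid transfer protein and LXR target, which fell. PLTP had 48.9 and 62.8 RPM in the controls and 17.9, 18.1 and 14.5 RPM after LIX1L siRNA, so all siLIX1L libraries were far below both controls. It was 3.31-fold lower, with a log2 difference of -1.18 (SE 0.14, limma adjusted p = 0.0384; edgeR adjusted p = 0.0373). The call was lost without any 1 of the siLIX1L libraries (adjusted p = 0.0759 to 0.230), with siLIX1L 1 and 2 averaged (0.168), without the minimum level (0.103) and after removal of the trend on length and GC (0.0586), with the direction kept. Of the 11 of these 13 genes tested by edgeR, 7 had positive log2 fold changes, and the median was 0.10.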

How the data were processed

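Members and lists were chosen with earlier results of these data known. Each deposited file gives the authors' FPKM for the genes of 1 library, per the file headers, and that of siLIX1L 3 also a raw count. Bowtie 0.12.2 and mm8, a mouse build, are named in the submitters' processing notes. This build does not match the human Ensembl IDs, so build and annotation are uncertain. Deposited lengths were GENCODE 29 gene spans, introns included, for 98.2% of the genes found there (median 27.0 kb; longest transcripts had a median of 3.16 kb). FPKM is therefore low for genes with long introns. Gene coordinates are those of GENCODE 29 on GRCh38.

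Whole reads were recovered from FPKM and length for 100% of values (tolerance 0.01 reads), and equalled the deposited counts for all 19936 genes of siLIX1L 3. RPM is relative to the recovered totals. No detected read allows up to 3 reads, worth 0.164 to 0.202 RPM. Limma 3.58.1 in R 4.3.3 (two-sided, trended and robust eBayes, Benjamini-Hochberg adjustment over all genes tested) used log2(FPKM + 1), which understates the change of low genes. EdgeR 4.0.16 (robust quasi-likelihood, TMM) and DESeq2 1.42.0 used the recovered counts. A plain fold change is the ratio of mean RPM unless said to be over pooled reads. Scripts were tested on simulated data. The genes named are the 31 members, LIX1L, CCL20 and, in each further list, up to 4 genes past the threshold or else the 2 of smallest p. Alternatives were the minimum level, a pseudocount of 0.1, scaling, a replicate block, each library left out, siLIX1L 1 and 2 averaged, removal of a length and GC trend, and the other tests. Some genes of the pathway are not analysed here.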

Additional observations from a re-analysis of the deposited data

How the results depend on the processing

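The count of all genes past the threshold was 121 in limma and 116 with edgeR. It was 0 without a minimum level (3407 genes at an unadjusted p under 0.05), 0 with siLIX1L 1 and 2 averaged (976 unadjusted), 2 with the length and GC trend removed, 233 with quantile normalization and 1673 with DESeq2. Leaving out 1 library gave 0 to 1650, with 0 without any 1 of the siLIX1L libraries (899 to 1773 unadjusted), 337 without siControl 2 and 1650 without siControl 1. The cause was not tested.

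The count of members past the threshold was 0 of 24 in limma. It was 1 with a minimum of 5 FPKM and 1 with quantile normalization (STARD4 in both). In these settings 138 of 2438 and 233 of 6464 genes passed. The count was 5 with DESeq2 and 0 without any 1 of the siLIX1L libraries. Fits without 1 of the controls rest on 1 control library, and their member counts are not given. The median edgeR log2 fold change of the SREBP2 targets, 0.62, ran from 0.38 to 1.09 when 1 library was left out, and that of the LXR targets from -0.34 to 0.0055.

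With the replicate number as a block, 94 genes and 0 members passed in limma, and the median of the SREBP2 targets in edgeR was 0.43. Number 3 occurs only among the siLIX1L libraries, so siLIX1L 3 does not enter the estimated difference under the block. The limma differences under the block therefore equal those without siLIX1L 3, as in HMGCS1 (0.96) and STARD4 (0.84). Of the 7 members tested on reads alone, edgeR with the block called CYP51A1 (adjusted p = 0.0222, and 0.0739 without the block). With 2 numbers shared by the groups, the deviations of same-numbered libraries had a correlation of -0.17 over genes, and nothing in the labels ties the numbers to a shared culture or day. MVK (-0.038) and MVD (-0.20) turned sign under the block, as they did without siLIX1L 3.

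In 12 of the 31 members the sign turned in some setting, and in 19 it did not in any setting run. With the length and GC trend removed, PMVK was at 0.23, EBP at 0.015, NPC1 at -0.11, NPC2 at 0.065 and SOAT1 at -0.088, and with edgeR NPC1 was at -0.0020. The ranges that follow are edgeR log2 fold changes for NSDHL, HSD17B7, ABCA1, MYLIP, NR1H3 and ABCG1. For the other genes they are limma differences of log2(FPKM + 1), a different scale. When 1 library was left out, the log2 difference ran from -0.038 to 0.15 for MVK, -0.36 to 0.067 for PMVK, -0.44 to 0.55 for MVD, -0.14 to 0.10 for NSDHL, -0.25 to 1.09 for HSD17B7, -0.40 to 0.029 for EBP, -0.027 to 0.075 for SCAP, -0.68 to 0.026 for INSIG2, -0.34 to 0.43 for NPC1, -0.28 to 0.054 for NPC2, -0.34 to 0.0055 for ABCA1 and -0.18 to 0.51 for SOAT1. Each range but that of MVK has an end from leaving out siControl 1. Moves below are relative to the value with all libraries. With the sign kept, the difference still moved over 1.5 times for HMGCS1 (0.89 to 1.84), MSMO1 (0.73 to 1.61), SQLE (0.39 to 1.63), INSIG1 (0.14 to 1.37), FDPS (0.012 to 0.65), FDFT1 (0.17 to 0.58), SREBF2 (0.30 to 0.63), MYLIP (0.23 to 0.54) and NR1H2 (0.086 to 0.23), each lowest without siControl 1 and highest without siControl 2. ACAT2 (0.33 to 0.87), DHCR7 (0.35 to 0.88) and LSS (0.31 to 0.69) were lowest without siLIX1L 3, and TM7SF2 (-0.84 to -0.28), NR1H3 (-1.16 to -0.17) and ABCG1 (-2.40 to -1.12) were nearest 0 without siControl 2.

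With 2 controls, 1 library can set a difference, and CYP51A1 and ABCG1 rest on few reads.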
